A study of Mus musculus with 30 samples.

Results

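Collagen chain genes were taken as the genes whose symbol consists of Col, a number, the letter a and a number, and which had more than 14 counts over the 30 libraries of the series. Of 44 such genes in the count table, 32 passed this filter, among 20139 genes that passed of 54232 in all. The 32 were grouped as 9 fibrillar chains, 6 basement membrane chains of type IV, 3 chains of type VI and 14 other chains. The 12 chains left out had between 0 and 14 counts in all: Col2a1 had 14, and Col24a1, Col13a1 and Col19a1 had none. Col2a1, the chain of cartilage collagen, thus missed the filter by 1 count.

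The cells were 3T3-L1, a mouse preadipocyte line, kept for 5 days in adipogenic medium with insulin, dexamethasone, isobutylmethylxanthine and indomethacin, and the study asked how oxidant agents alter the RNA of adipocytes and whether pNaKtide, a cell-permeant peptide that blocks signaling from the Na,K-ATPase through Src, counters this. The 6 groups of 5 libraries were Control (adipogenic medium alone), pNaKtide at 0.7 µM, IS (indoxyl sulfate, a uremic toxin) at 100 µM, IS + pNaKtide, oxLDL (oxidized low density lipoprotein) at 50 µg/mL and oxLDL + pNaKtide, with the same doses when combined. All groups share 1 line and the same medium, so no group was left undifferentiated. For the length of treatment the labels state 5 days, whereas the study's methods state 2. The text on RNA extraction speaks of adipose tissue, whereas source and line are both given as 3T3 cells. The labels do not say whether the 5 libraries of a group came from separate cultures, and p-values then measure only the spread between these libraries, which may be technical.

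Collagens are the main structural proteins of the extracellular matrix: their chains wind around each other into long helices, which assemble outside the cell. Fibrillar collagens (types I, III, V, XI and XXVII here) form the fibers that resist tension, type IV forms the sheet-like network of basement membranes, and type VI forms beaded microfibrils between them and is abundant in fat. Mature adipocytes are each wrapped in a basement membrane, and the matrix around them is remodeled as fat tissue expands.

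The start regions of 7 chains are shown, since the results turn on how these move together or apart: Col4a1 and Col4a2, which encode the partners of the ordinary basement membrane, Col4a5 and Col4a6, which lie side by side in the same arrangement, Col6a1 and Col6a2, partners in type VI, and Col15a1, the chain whose fall with IS stayed past the threshold whichever library was left out. Each is 250 bases before to 50 bases after the gene's start, from RefSeq on GRCm38.p6, 5′ to 3′ on the strand of the gene. RefSeq windows were found for 25 of the 32 chains, 27 windows in all. Capitals mark the letters CCAAT, the GC box GGGCGG and the TATA-box letters TATAAA, each searched on both strands, where overlapping copies run together. CCAAT is in 10 of the 27 windows and in 37.4% of 32851 promoters of this length, GGGCGG in 18 of 27 and in 35.7%, and TATAAA in 3 of 27 and in 13.6%. The windows of Col4a1 and Col4a2 share 78 bases (chr8:11312777-11312854), read from opposite strands, and those of Col6a1 and Col15a1 hold none of the 3 motifs. Col6a2 has 2 starts, of which the downstream is shown.
Col4a1 (chr8:11312777-11313076, minus strand): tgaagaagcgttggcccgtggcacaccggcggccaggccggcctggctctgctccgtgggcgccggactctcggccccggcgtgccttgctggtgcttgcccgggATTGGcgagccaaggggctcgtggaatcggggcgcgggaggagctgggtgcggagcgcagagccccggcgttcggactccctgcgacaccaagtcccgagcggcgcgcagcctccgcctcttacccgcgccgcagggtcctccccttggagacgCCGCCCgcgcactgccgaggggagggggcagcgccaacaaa
Col4a2 (chr8:11312555-11312854, plus strand): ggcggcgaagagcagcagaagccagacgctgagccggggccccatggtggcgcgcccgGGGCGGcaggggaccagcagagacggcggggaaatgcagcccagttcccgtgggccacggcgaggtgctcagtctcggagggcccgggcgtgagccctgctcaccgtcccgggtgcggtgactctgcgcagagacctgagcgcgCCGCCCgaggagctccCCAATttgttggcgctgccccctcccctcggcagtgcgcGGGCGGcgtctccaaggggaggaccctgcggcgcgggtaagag
Col4a5 (chrX:141475169-141475468, plus strand): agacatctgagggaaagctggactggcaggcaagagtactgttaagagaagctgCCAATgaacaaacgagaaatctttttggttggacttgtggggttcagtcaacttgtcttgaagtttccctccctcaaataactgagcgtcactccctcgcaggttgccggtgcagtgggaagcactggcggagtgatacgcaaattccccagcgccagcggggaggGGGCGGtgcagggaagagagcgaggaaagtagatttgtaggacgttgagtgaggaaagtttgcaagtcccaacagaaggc
Col4a6 (chrX:141474027-141474326, minus strand): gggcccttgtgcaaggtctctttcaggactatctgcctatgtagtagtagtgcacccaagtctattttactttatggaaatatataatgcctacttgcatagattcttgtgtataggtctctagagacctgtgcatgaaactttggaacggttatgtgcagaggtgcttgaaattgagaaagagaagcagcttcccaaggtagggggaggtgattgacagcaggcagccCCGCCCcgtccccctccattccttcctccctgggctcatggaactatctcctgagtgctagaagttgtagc
Col6a1 (chr10:76725995-76726294, minus strand): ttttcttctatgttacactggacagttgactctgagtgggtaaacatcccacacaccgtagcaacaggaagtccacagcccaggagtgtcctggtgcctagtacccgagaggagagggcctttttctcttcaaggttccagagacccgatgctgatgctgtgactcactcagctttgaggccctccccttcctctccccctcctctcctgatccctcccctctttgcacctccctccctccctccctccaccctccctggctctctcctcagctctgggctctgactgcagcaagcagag
Col6a2 (chr10:76623355-76623654, minus strand): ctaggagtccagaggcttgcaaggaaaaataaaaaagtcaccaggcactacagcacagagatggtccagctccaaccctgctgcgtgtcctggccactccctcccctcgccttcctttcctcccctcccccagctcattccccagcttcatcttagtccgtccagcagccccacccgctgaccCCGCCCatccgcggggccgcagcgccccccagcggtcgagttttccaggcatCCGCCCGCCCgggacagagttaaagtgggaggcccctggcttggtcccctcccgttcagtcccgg
Col15a1 (chr4:47207762-47208061, plus strand): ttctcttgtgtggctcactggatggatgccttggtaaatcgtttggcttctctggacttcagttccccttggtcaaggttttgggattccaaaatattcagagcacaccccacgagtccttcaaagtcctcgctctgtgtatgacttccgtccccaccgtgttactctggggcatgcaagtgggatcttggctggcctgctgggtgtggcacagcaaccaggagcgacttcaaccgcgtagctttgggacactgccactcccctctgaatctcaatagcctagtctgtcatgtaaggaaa

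The label of the cells fitted their markers in part. Of 9 adipocyte markers, all were measured, and 8 had between 129 and 7482 CPM (counts scaled to a common library total, with TMM factors) in every library, whereas Lep, which encodes leptin, reached at most 0.865 CPM. Macrophages and endothelial cells, both sources of collagen in fat tissue, were checked by 5 and 3 markers: Ptprc, the leukocyte marker CD45, had 0 counts in all 30 libraries, and the endothelial markers Cdh5 and Tek had 6 and 8 counts in all. Of the other macrophage markers, Adgre1 and Csf1r had 4 and 65 counts in all, whereas Cd68 and Lyz2 were found in every library, with medians of 4.53 and 1.42 CPM, and the endothelial marker Pecam1 had 79 counts and was at 0 in 3 libraries. Between 6945498 and 15159877 read pairs were assigned to genes per library. On the first principal component, with 64.4% of the variance, some libraries stood apart from their group. Control replicate 1 scored -25.8, within the oxLDL libraries (-41.9 to -14.7) and away from the other Control libraries (6.47 to 29.9). IS replicate 4 scored 28.2 against -36.7 to -23.2 in the other IS libraries, oxLDL + pNaKtide replicate 4 scored 67.5 against 14.5 to 33.2, and pNaKtide replicate 3 scored -5.36 against 15.9 to 36.6. IS + pNaKtide replicate 2 scored -2.45 against -18.5 to -15.3.

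Collagen chains were among the abundant transcripts of these cells. Per unit of length, on the authors' FPKM scale, 10 chains had a median over 30 libraries above 50, and the other 22 had at most 12.7. Col4a1 stood first with a median of 649.8 FPKM (range 508 to 1007), followed by Col6a1 with 477 (347 to 860), Col4a2 with 476 (383 to 814), Col6a3 with 379 (298 to 689) and Col6a2 with 259 (172 to 516). By these medians over all groups, the basement membrane pair and type VI were above type I, of which Col1a1 had a median of 236 FPKM (131 to 416) and Col1a2 of 206 (145 to 321), and type III, with 216 for Col3a1 (163 to 265). The ranges of neighbors in this order overlap: Col6a1 and Col4a2 do not differ beyond their spread, nor do Col1a1, Col3a1 and Col1a2, nor Col6a2 and Col1a1, of which Col1a1 was the higher in oxLDL replicates 1, 2 and 5, among others. Type V came next, with 84.8 FPKM for Col5a1 and 56.9 for Col5a2. The other 4 basement membrane chains were far lower, with 11.9 FPKM for Col4a5 and at most 0.016 for Col4a3, Col4a4 and Col4a6. At the other end, 10 chains had a median of at most 0.108 FPKM, that of Col9a3.

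The summed TMM-scaled level of the 32 chains was lower in every oxLDL library than in any Control library. It ranged from 29249 to 34476 CPM in the Control libraries, from 23013 to 26178 with oxLDL, and with IS from 19476 to 24441 in all but replicate 4, which had 29625. All 5 oxLDL libraries were below all 5 Control libraries, whereas IS replicate 4 was within the Control range. With IS + pNaKtide the sum was 21125 to 23638 CPM, near the IS libraries, and with oxLDL + pNaKtide it was 23483 to 39656, the widest range of the 6 groups. With pNaKtide alone the libraries parted: replicates 1, 2 and 3 had 23780, 24199 and 21987 CPM, and replicates 4 and 5 had 34885 and 35740. The 32 chains took between 2.16% and 3.50% of all counts in the 30 libraries, and as a share of counts the 2 groups overlapped, with 2.86% in oxLDL replicate 5 and 2.83% in Control replicate 3. In such bulk samples, fewer cells that make collagen and less collagen RNA per cell cannot be told apart.

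**Figure D1:**
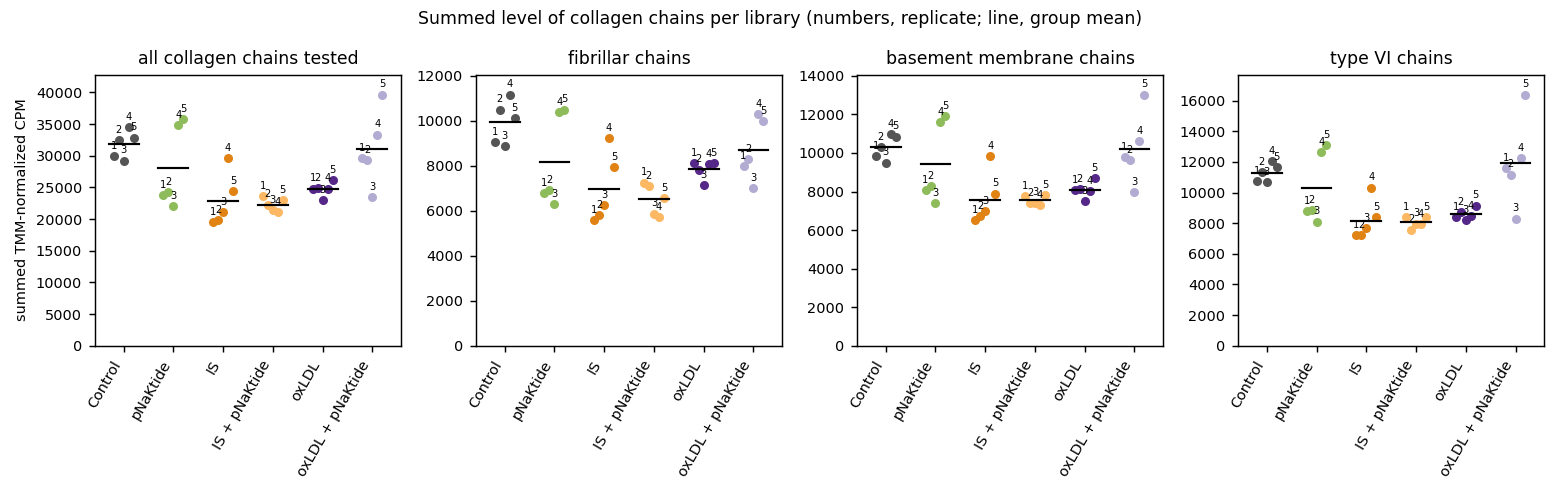
Summed TMM-normalized CPM (y axis) of all 32 collagen chains and of the fibrillar, basement membrane and type VI chains in each of 30 libraries (points, numbered by replicate), by group (x axis), with the group mean as a line. The 5 oxLDL libraries (23013 to 26178 for all chains) lie below the 5 Control libraries (29249 to 34476), pNaKtide replicates 4 and 5 lie apart from the other 3, and IS replicate 4 lies above the other IS libraries.

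In cells given oxLDL, 8 collagen chains fell and 1 rose compared with Control, of 32 tested. The 8 were the type I chains Col1a1 and Col1a2, the main basement membrane chains Col4a1 and Col4a2, the type VI chains Col6a1 and Col6a2, and Col15a1 and Col18a1, which belong to the basement membrane zone and give rise to the fragments restin and endostatin. Of all genes tested, 36.0% were called at a BH-adjusted p-value of 0.1 (18.0% lower and 18.1% higher), so 9 of 32 is not above the background share. At an unadjusted p under 0.05 there were 10 chains, against 39.3% of all genes. The median change was -0.02 on the log2 scale over the 32 chains, against 0.04 over all genes. The 19 chains with a mean of at least 10 CPM had a median of -0.21, and the 13 below 10 CPM a median of 0.32.

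Type VI collagen had the smallest p-values of the classes. Col6a2 had 2325, 3227, 2868, 3443 and 3267 CPM in the Control libraries and 1849, 1881, 1964, 2067 and 1965 CPM with oxLDL. Col6a1 had 2399, 2958, 2652, 3128 and 2914 CPM in the Control libraries and 1868, 1889.8, 1868, 2057 and 1971 CPM with oxLDL. For both chains every oxLDL library was below every Control library, and the oxLDL libraries lay close together. Col6a2 fell by 0.64 on the log2 scale (SE 0.16, BH-adjusted p-value 0.00894, edgeR) and Col6a1 fell by 0.54 (SE 0.14, adjusted p = 0.0104). The third chain, Col6a3, whose fragment endotrophin is released by adipocytes, had 4349 to 5212 CPM with oxLDL and 5161 to 6026 in Control, a change of -0.21 (SE 0.15, BH-adjusted p-value 0.302, edgeR) that did not pass.

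The fibrillar chains showed the type I pair lower and the rest not called. Col1a1 had 1809, 2552, 1939, 2761 and 2399.8 CPM in the Control libraries and 1573, 1577, 1365, 1600.2 and 1618 CPM with oxLDL. Col1a2 had 3001, 3739, 3144, 4012 and 3533 CPM in the Control libraries and 2635, 2508, 2474, 2675 and 2571 CPM with oxLDL. The Control libraries spread from 1809 to 2761 CPM for Col1a1, and the lowest of them was Control replicate 1. Col1a1 fell by 0.57 (SE 0.22, BH-adjusted p-value 0.0481, edgeR) and Col1a2 fell by 0.44 (SE 0.16, adjusted p = 0.0408). Col3a1, the chain of type III, had 2042 to 2376 CPM with oxLDL and 2276 to 2627 in Control, a log2 difference of -0.13 (adjusted p = 0.350, edgeR). Of type V, which sets the diameter of type I fibrils, Col5a1 had 607 to 767 CPM against 777 to 970.0, with no overlap but an adjusted p of 0.118 in edgeR. With offsets for GC content and length, Col1a1 was no longer called, and Col3a1 and Col5a2 were called lower, as given below.

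The basement membrane chains Col4a1 and Col4a2 fell by 0.34 (SE 0.13) and 0.38 (SE 0.14), with BH-adjusted p-values of 0.0450 and 0.0405 in edgeR. Col4a1 had 4547 to 5302 CPM with oxLDL and 5768 to 6597 in Control, and Col4a2 had 2860.4 to 3296 against 3643 to 4324, without overlap in either. Col4a5, the chain mutated in X-linked Alport syndrome, was not called: it had 79.4 to 112 CPM with oxLDL and 75.8 to 109 in Control (log2 difference 0.15, with 2 SE on each side from -0.10 to 0.40). Col15a1 had 27.9, 33.0, 37.1, 30.4 and 44.8 CPM in the Control libraries and 26.7, 27.2, 21.9, 25.1 and 27.6 CPM with oxLDL. All 5 oxLDL values were below the lowest Control value, and Col15a1 fell by 0.42 (SE 0.13, BH-adjusted p-value 0.0178, edgeR). Col18a1 fell by 0.39 (SE 0.14, adjusted p = 0.0370, edgeR), from 97.1 to 122 CPM in Control to 71.9 to 99.7 with oxLDL, where replicate 4 overlapped the Control range. With offsets for GC content and length, Col4a1, Col4a2 and Col18a1 were no longer called, as given below.

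Col7a1, the chain of the anchoring fibrils of skin, was the 1 chain that rose. Col7a1 had 3.36, 1.26, 1.53, 1.90 and 1.13 CPM in the Control libraries and 3.39, 3.81, 2.72, 2.26 and 3.81 CPM with oxLDL. The 4 other Control libraries were below every oxLDL library, and Control replicate 1 was inside their range. The rise was 0.80 (SE 0.27, BH-adjusted p-value 0.0292, edgeR) at a level of a few CPM. In all, 8 of 32 chains had oxLDL and Control libraries that did not overlap, against 8.35% of all genes.

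**Figure D2:**
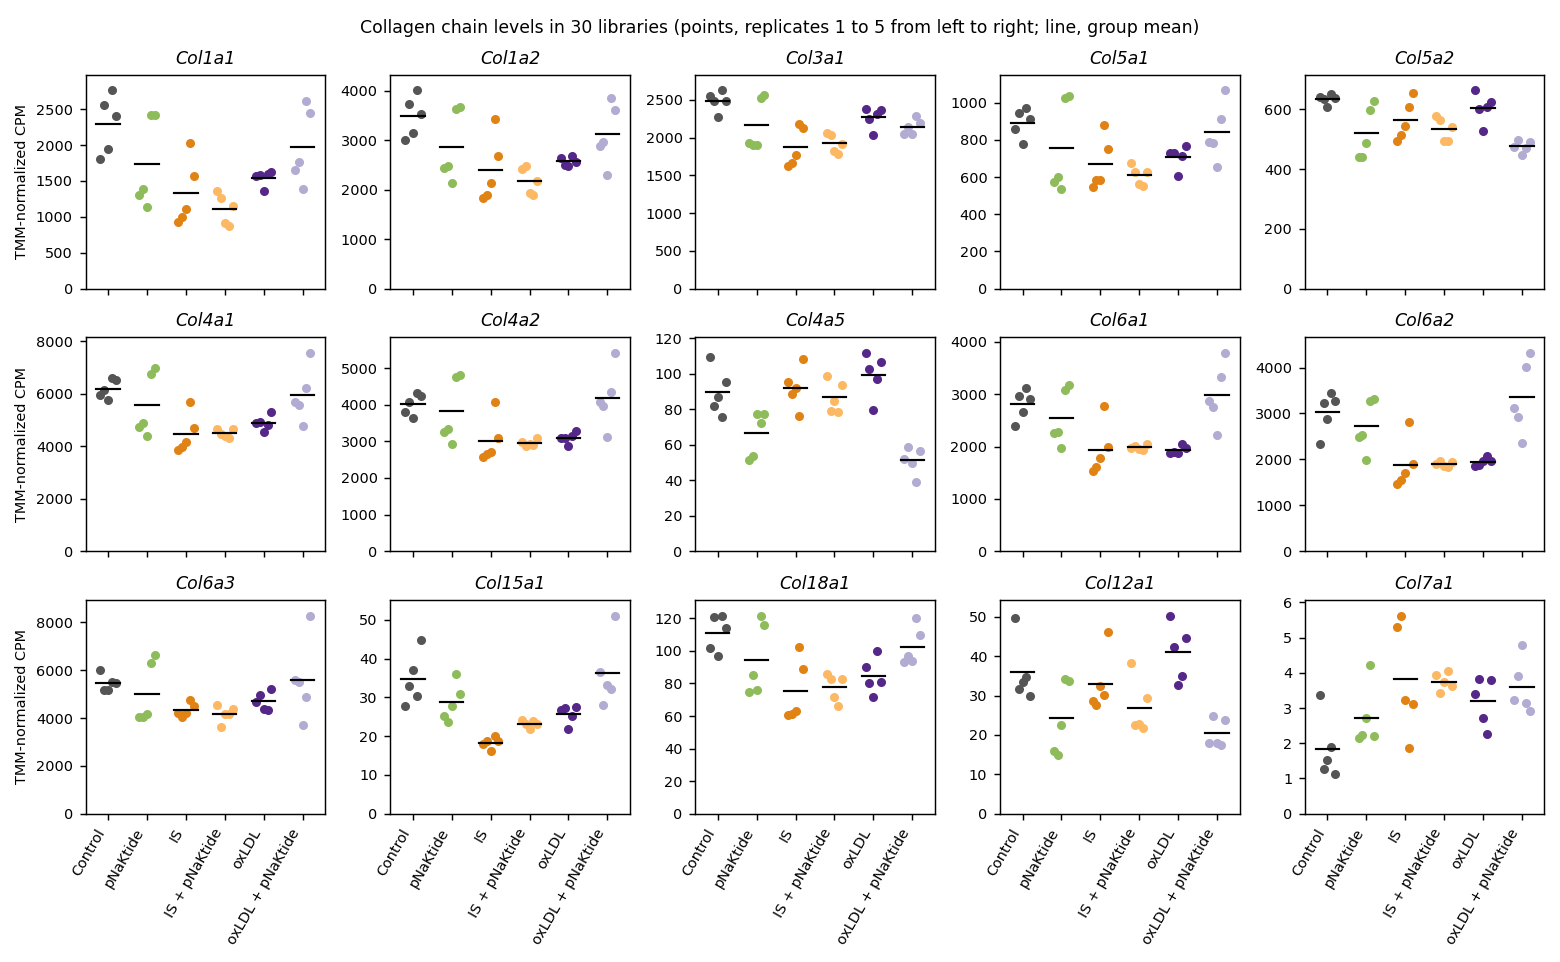
TMM-normalized CPM (y axes, each from 0) of 15 collagen chains in the 5 libraries of each group (points, replicates 1 to 5 from left to right; line, group mean). For Col6a2 the oxLDL libraries lie between 1849 and 2067 and the Control libraries between 2325 and 3443, while for Col4a5 the oxLDL + pNaKtide libraries lie between 38.9 and 58.7, below all Control libraries.

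The calls of single chains depended in part on the libraries and on the scaling. Without Control replicate 4, 6 chains were called, against 24.7% of all genes in the same fit, and without Control replicate 1, 13 were called, 5 of them higher, against 45.9%. Scaled by library size alone, in place of TMM, 3 chains were called lower and 1 higher, against 35.9%. This scaling moved the median of all genes from 0.04 to 0.17 with oxLDL, from 0.03 to 0.14 with IS, and from -0.09 to -0.30 for oxLDL + pNaKtide against oxLDL.

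In cells given IS, of 32 chains 10 fell and 1 rose compared with Control, whereas 7.94% of all genes were called (3.49% lower, 4.45% higher). The chains that fell were Col1a1, Col1a2, Col3a1 and Col5a3 among the fibrillar chains, Col4a1 and Col4a2, Col6a1 and Col6a2, and Col15a1 and Col18a1. The median change was -0.15 over the 32 chains and -0.41 over the 19 with a mean of at least 10 CPM, against 0.03 over all genes. Both comparisons use the same Control libraries, so their changes are given side by side and not set against each other.

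Col15a1 had 17.9, 18.9, 16.1, 20.0 and 18.7 CPM with IS. The highest IS library, at 20.0, was below the lowest Control library, at 27.9. Col15a1 fell by 0.92 (SE 0.13, BH-adjusted p-value 0.00105, edgeR), to a fold of 0.529, and was the chain with the smallest p-value. It was also the 1 chain that stayed past the threshold whichever single library was left out, with an adjusted p of at most 0.0116 over those 10 fits of edgeR. Across the libraries, after each group's mean was taken off, the genes most like Col15a1 among 12580 were Ccdc80 (Pearson r = 0.79), Slc12a7 (0.79), Sun2 (0.75), Slc20a2 (0.73) and Gpc4 (0.72), as a description over 30 libraries that share depth and composition.

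Col6a2 had 1456, 1543, 1699.8, 2807 and 1908 CPM with IS. Col6a1 had 1540.2, 1605, 1775, 2778 and 1996 CPM with IS. In both chains IS replicate 4 was within the Control range, and the other 4 IS libraries were below every Control library. Col6a2 fell by 0.68 (SE 0.16, BH-adjusted p-value 0.0447, edgeR) and Col6a1 fell by 0.54 (SE 0.14, adjusted p = 0.0614). Col6a3 was at 4050 to 4740 CPM, below all Control libraries, and did not pass (-0.33, SE 0.15, adjusted p = 0.170, edgeR).

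Col1a1 had 933, 1002, 1107, 2022 and 1571 CPM with IS. Col3a1 had 1622, 1663, 1769.9, 2183 and 2133 CPM with IS. Of these fibrillar chains, Col1a1 reached into the Control range through replicate 4, and Col3a1 did not overlap with it. Col1a1 fell by 0.79 (SE 0.22, BH-adjusted p-value 0.0628, edgeR), Col1a2 by 0.54 (SE 0.16, adjusted p = 0.0728), Col3a1 by 0.41 (SE 0.10, adjusted p = 0.0487), and Col5a3 by 0.46 (SE 0.13, adjusted p = 0.0694). The other type V chains did not pass, with -0.42 (SE 0.16) for Col5a1 and -0.17 (SE 0.10) for Col5a2.

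Among the chains of the basement membrane zone, Col4a1 fell by 0.47 (SE 0.13, BH-adjusted p-value 0.0621, edgeR), from 5768 to 6597 CPM in Control to 3844 to 5680.0 with IS, and Col4a2 fell by 0.41 (SE 0.14, adjusted p = 0.0912), from 3643 to 4324 CPM to 2570.4 to 4079.5. Col18a1 fell by 0.56 (SE 0.14, adjusted p = 0.0511, edgeR). Col18a1 had 60.8, 61.1, 63.2, 102 and 88.7 CPM with IS. Replicates 4 and 5 were the highest 2 IS libraries in Col18a1, Col4a1, Col4a2 and both type I chains. Col4a5 had 76.0 to 108 CPM and was not called. Col7a1 rose by 1.07 (SE 0.26, BH-adjusted p-value 0.0487, edgeR). Col7a1 had 5.31, 5.63, 3.22, 1.88 and 3.11 CPM with IS. Here replicate 4 was the lowest IS library, and replicates 3, 4 and 5 lay inside the Control range, which reached 3.36 CPM through replicate 1.

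IS replicate 4 and Control replicate 1 thus bear on most of these values. Without IS replicate 4, 17 chains were called (4 higher and 13 lower), against 34.5% of all genes in the same fit, and without Control replicate 1, 16 were called (5 and 11), against 33.2%. With both left out the 16 chains called were 5 higher and 11 lower, against 45.4% of all genes, and the fall of Col6a2 grew from 0.68 to 0.95 and that of Col1a1 from 0.79 to 1.07. Leaving out any 1 of Control replicates 2, 4 and 5 or IS replicates 1, 2 and 3 left Col15a1 as the single call, with at most 0.214% of all genes called. When only the 10 libraries compared were fitted, no chain was called by edgeR. The share of all genes called in that fit is not given, so this is not read as particular to collagen. In the fit over all 30, 16 chains had an unadjusted p under 0.05, against 25.0% of all genes. Scaled by library size alone, 8 were lower and 2 higher, against 12.6% of all genes. In 5 of 32 chains the IS and Control libraries did not overlap, against 1.81% of all genes.

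With pNaKtide alone, no collagen chain was called by edgeR, and 0.00497% of all genes were. At an unadjusted p under 0.05 there were 5 chains, against 6.12% of all genes, and DESeq2 called 1, which was lower, against 0.937% of the genes to which it gave an adjusted p. In 0 of 32 chains did the groups fail to overlap, against 0.934% of all genes. Of the 32 chains 30 had a fold change below 0, with a median of -0.22 against -0.02 over all genes. Col4a5 had 109, 81.6, 86.6, 75.8 and 95.4 CPM in the Control libraries and 51.6, 53.6, 77.5, 72.2 and 77.0 CPM with pNaKtide. Col4a5 had the smallest p, with a log2 difference of -0.43 (SE 0.13, BH-adjusted p-value 0.515, edgeR). Col12a1 had 49.6, 31.8, 33.3, 34.7 and 29.98 CPM in the Control libraries and 15.9, 14.9, 22.6, 34.2 and 33.6 CPM with pNaKtide. Col12a1, a chain that sits on the surface of fibrils, differed by -0.56 (SE 0.21, adjusted p = 0.692, edgeR), and Col5a2 by -0.29 (SE 0.10, adjusted p = 0.620). Col6a2 had 2491, 2528, 1987, 3269 and 3313 CPM with pNaKtide. In Col6a2, as in the summed levels, replicates 4 and 5 were at the level of the higher Control libraries and replicates 1, 2 and 3 lower.

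When pNaKtide was added to oxLDL, 6 chains were higher and 8 were lower than with oxLDL alone. Both type VI chains that fell with oxLDL, Col4a1 and Col4a2, Col15a1 and the type V chain Col5a3 rose. The type V chain Col5a2, Col11a1 and Col27a1, which are fibrillar chains known from cartilage, the basement membrane chains Col4a5 and Col4a3, and Col12a1, Col8a1 and Col17a1 fell. Over all genes 48.3% were called (22.1% higher, 26.1% lower), so 14 chains of 32 is close to the background. The median change was -0.19 over the 32 chains, 0.25 over the 19 with at least 10 CPM and -0.09 over all genes.

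Col6a2 had 3125, 2929, 2365, 4005 and 4318 CPM with oxLDL + pNaKtide. Col6a1 had 2862, 2757, 2222, 3325 and 3789 CPM with oxLDL + pNaKtide. All 5 values of each chain were above all 5 oxLDL values, and replicate 3 was the lowest in both. Col6a2 rose by 0.78 (SE 0.16, BH-adjusted p-value 0.000244, edgeR) and Col6a1 by 0.63 (SE 0.14, adjusted p = 0.000723). Col6a3 had 3714 to 8292 CPM, the widest spread of the 3, and was not called (0.25, SE 0.15, adjusted p = 0.192, edgeR).

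Col15a1 had 36.5, 28.0, 33.1, 32.3 and 51.1 CPM with oxLDL + pNaKtide. Each value was above the highest oxLDL value of 27.6 CPM, although replicate 2 only just. Col15a1 rose by 0.49 (SE 0.13, BH-adjusted p-value 0.00279, edgeR). Col4a2 rose by 0.44 (SE 0.14, adjusted p = 0.0106, edgeR) and Col4a1 by 0.29 (SE 0.13, adjusted p = 0.0711), with replicate 3 inside the oxLDL range for both. Col4a1 stayed past the threshold in 4 of 10 fits with 1 library left out, and Col4a2 in all 10. Col5a3 rose by 0.38 (SE 0.13, adjusted p = 0.0183, edgeR), from 62.9 to 94.1 CPM to 97.8 to 135. The type I chains, which fell with oxLDL, were not called here, with log2 differences of 0.35 for Col1a1 (SE 0.21, 2 SE from -0.08 to 0.78, BH-adjusted p-value 0.198, edgeR) and 0.28 for Col1a2 (SE 0.16, adjusted p = 0.163). With offsets for GC content and length, however, Col1a2 was called higher, as given below. Col1a1 had 1649, 1768, 1388, 2619.9 and 2445 CPM with oxLDL + pNaKtide. For Col1a1, replicates 4 and 5 lay well above the oxLDL range and replicate 3 inside it.

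Of the chains that fell, Col4a5, Col12a1 and Col5a2 ended below the range of the Control libraries. Col4a5 had 112, 103, 79.4, 96.7 and 107 CPM with oxLDL and 51.9, 58.7, 49.9, 38.9 and 56.4 CPM with oxLDL + pNaKtide. The 2 groups did not overlap. Col4a5 fell by 0.96 (SE 0.13, BH-adjusted p-value 8.55e-06, edgeR), the smallest p of any chain in any comparison, to a fold of 0.515. Col12a1 had 50.3, 42.2, 32.7, 34.9 and 44.7 CPM with oxLDL and 18.1, 24.9, 18.0, 17.5 and 23.8 CPM with oxLDL + pNaKtide. Col12a1 fell by 1.00 (SE 0.21, adjusted p = 0.000328, edgeR), again without overlap. Col5a2 had 663, 603, 529, 608 and 624 CPM with oxLDL and 473, 498, 446, 469.6 and 491 CPM with oxLDL + pNaKtide. Col5a2 fell by 0.35 (SE 0.10, adjusted p = 0.00430, edgeR), with the lowest oxLDL library, replicate 3, just above the highest value with pNaKtide, but with offsets for GC content and length its change was 0.0609. Col11a1 fell by 0.77 (SE 0.21, adjusted p = 0.00389, edgeR) from 16.2 to 23.3 CPM to 8.97 to 12.5, and Col27a1 by 0.59 (SE 0.24, adjusted p = 0.0506) from 15.6 to 27.2 CPM to 11.3 to 19.7. Col17a1, a transmembrane chain of hemidesmosomes, Col8a1, a short chain of endothelial and corneal membranes, and Col4a3 were called lower at no more than 1.13 CPM in any of these libraries, where a library holds only a few counts. In 8 of 32 chains the 2 groups did not overlap, against 28.4% of all genes.

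Compared with Control, cells with both agents had 3 chains lower and 1 higher, of 5.2% of all genes called (3.16% lower, 2.04% higher). Col4a5 fell by 0.81 (SE 0.13, BH-adjusted p-value 0.000868, edgeR), Col5a2 by 0.42 (SE 0.10, adjusted p = 0.0161) and Col12a1 by 0.81 (SE 0.21, adjusted p = 0.0292), each without overlap, and Col7a1 rose by 0.97 (SE 0.28, adjusted p = 0.0483). The chains of types I and VI, Col4a1, Col4a2, Col15a1 and Col18a1 were not called. Among type VI the log2 difference was 0.15 for Col6a2 (2 SE from -0.17 to 0.46) and 0.09 for Col6a1 (-0.20 to 0.38). Not all lay that near or above Control: Col1a1 had 1388 to 2619.9 CPM against 1809 to 2761 in Control, and Col18a1 had 93.2 to 120 against 97.1 to 122. With 1 library left out, 3 or 4 chains were called, a count given without the share of all genes in those fits. In a fit of these 2 groups alone 1 chain was called, against 0.0546% of all genes. In 4 of 32 chains the groups did not overlap, against 4.03% of all genes.

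**Figure D3:**
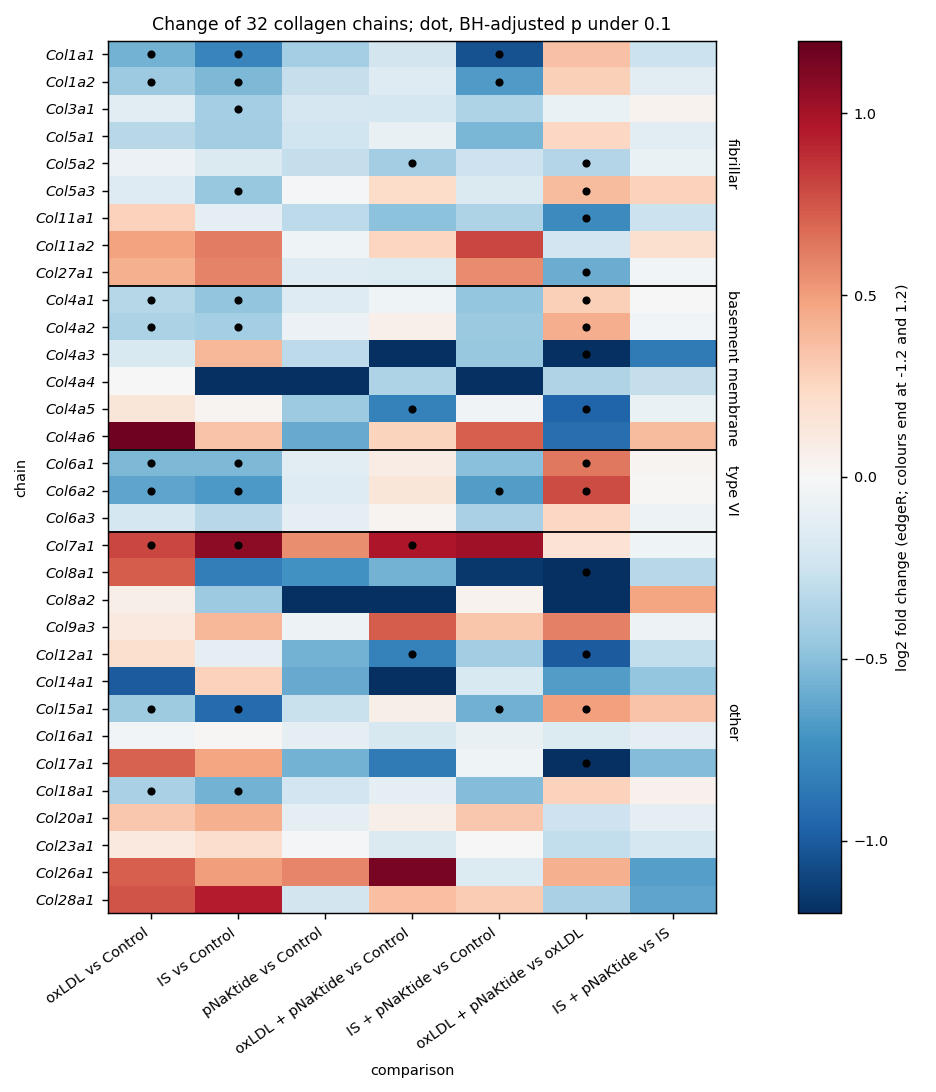
Log2 fold change (color) of 32 collagen chains (y axis, by class) in 7 comparisons (x axis), from edgeR, with a dot where the BH-adjusted p-value is under 0.1. Dots for oxLDL and for IS against Control mark mostly negative changes of types I, IV and VI, Col4a5 turns blue with a dot only in the columns with oxLDL + pNaKtide, and the deep colors without a dot belong to chains of few counts.

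Whether pNaKtide acted differently with and without oxLDL was tested directly. The change with pNaKtide in oxLDL cells minus that in cells without either agent passed for 9 chains, 8 of them positive, against 24.6% of all genes (12.8% positive, 11.8% negative). The difference was 0.94 for Col6a2 (SE 0.23, BH-adjusted p-value 0.0204, edgeR), 0.77 for Col6a1 (SE 0.20, adjusted p = 0.0246) and 0.76 for Col15a1 (SE 0.18, adjusted p = 0.0219). It also passed for Col4a2 (0.51, adjusted p = 0.0709), Col18a1 (0.51, adjusted p = 0.0769), Col1a1 (0.76, adjusted p = 0.0828), Col1a2 (0.56, adjusted p = 0.0838) and Col4a1 (0.44, adjusted p = 0.0863), all by edgeR. Col4a5 went the other way, with -0.52 (SE 0.18, adjusted p = 0.0477, edgeR), with a change of -0.96 in oxLDL cells and -0.43 without either agent. The first 3 chains stayed past the threshold in all 20 fits with 1 library left out, the next 5 in 8 to 13 of them. The count of 9 fell to 3 without Control replicate 4, pNaKtide replicate 3 or oxLDL + pNaKtide replicate 4, where at most 14.1% of all genes were called, and scaling by library size alone left 3 positive and 1 negative, against 26.2%.

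Against the change with pNaKtide in IS cells, that in oxLDL cells differed in 5 chains, 3 positive and 2 negative, where 29.3% of all genes passed (13.9% positive, 15.4% negative). At an unadjusted p under 0.05 there were also 5 chains, against 34.6% of all genes. Col6a2 (0.77, SE 0.22, BH-adjusted p-value 0.0192), Col6a1 (0.60, SE 0.20, adjusted p = 0.0357) and Col4a2 (0.47, SE 0.20, adjusted p = 0.0819) had the higher change with oxLDL, and Col4a5 (-0.87, SE 0.18, adjusted p = 0.00964) and Col12a1 (-0.70, SE 0.29, adjusted p = 0.0785) the lower, by edgeR. Without IS replicate 4 the count was 2, against 18.8% of all genes, and scaled by library size alone it was 1 positive and 4 negative, against 32.1%.

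**Figure D4:**
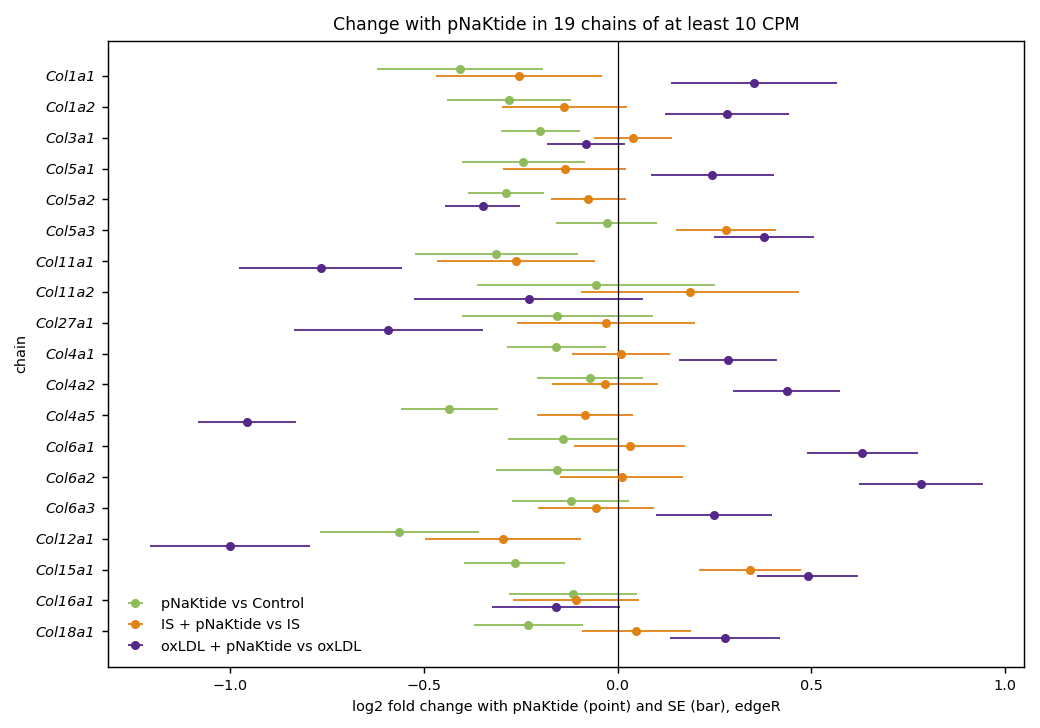
Log2 fold change with pNaKtide (x axis; point, with its SE as a bar) of the 19 collagen chains with a mean of at least 10 CPM (y axis), in cells without another agent, with IS and with oxLDL, from edgeR. For Col6a2 the change with oxLDL is 0.78 against -0.16 without another agent and 0.01 with IS, and Col4a5 lies at -0.96 with oxLDL.

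In cells given IS, no collagen chain was called with pNaKtide, by edgeR or by DESeq2, and 0.0% of all genes were called. At an unadjusted p under 0.05 there were 2 chains, Col15a1 and Col5a3, against 2.8% of all genes. Col15a1 had 24.1, 23.1, 21.9, 23.8 and 23.1 CPM with IS + pNaKtide. These 5 libraries lay above all 5 IS libraries and below all 5 Control libraries, with a log2 difference of 0.34 from IS (SE 0.13, 2 SE from 0.08 to 0.61, BH-adjusted p-value 1, edgeR). Col5a3 had 80.3 to 90.5 CPM against 58.2 to 74.4 with IS alone (log2 difference 0.28, SE 0.13). For Col6a2 the difference was 0.01 (SE 0.16, 2 SE from -0.31 to 0.33). Col6a2 had 1888, 1962, 1856, 1841 and 1939.8 CPM with IS + pNaKtide. Its 5 libraries were close together, inside the range of the IS libraries. The groups did not overlap in 2 of 32 chains, against 0.834% of all genes.

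Set against Control, the cells with IS + pNaKtide had 4 chains lower and none higher, where 0.358% of all genes were called (0.218% lower, 0.139% higher). These were Col1a1, which fell by 1.04 (SE 0.22, BH-adjusted p-value 0.0568, edgeR), Col1a2 by 0.68 (SE 0.16, adjusted p = 0.0745), Col6a2 by 0.67 (SE 0.16, adjusted p = 0.0741, edgeR) and Col15a1 by 0.58 (SE 0.13, adjusted p = 0.0674). Col1a1 had 1361, 1263, 908, 877 and 1155 CPM with IS + pNaKtide. Every one of these was below the lowest Control library of 1809 CPM. In 15 of 32 chains the groups did not overlap, against 3.79% of all genes, and 18 chains had an unadjusted p under 0.05, against 20.0%. Without Control replicate 1, 15 chains were called, against 26.7% of all genes in the same fit, and without any 1 of Control replicates 2, 4 and 5 or IS + pNaKtide replicates 3, 4 and 5 none was. With DESeq2 14 were called (2 higher, 12 lower), against 12.4% of the genes to which it gave an adjusted p.

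Chains that assemble with each other varied together in part, as did some that are not partners. The ratio of Col4a1 to Col4a2 on the FPKM scale was between 1.24 and 1.43 in all 30 libraries, and that of Col6a1 to Col6a2 between 1.58 and 2.01, whereas Col6a3 to Col6a1 ranged from 0.540 to 1.01. After the group means were taken off, log2 CPM over the 30 libraries correlated at Pearson r = 0.99 for Col4a1 and Col4a2, 0.98 for Col6a1 and Col6a2 and 0.99 for Col1a1 and Col1a2, but 0.68 for Col6a1 and Col6a3, 0.15 for Col4a1 and Col4a5 and -0.25 for Col6a2 and Col4a5. Pairs of chains of different types reached similar values, with 0.94 for Col1a1 and Col5a1, 0.92 for Col3a1 and Col5a2 and 0.88 for Col12a1 and Col11a1. These are descriptions, since libraries share depth and composition across genes. Col4a1 and Col4a2 overlap head to head by 22 bases, and reads there cannot be told apart without strand, but the overlap covers less than 1% of the exon bases of either. Col4a5 and Col4a6 also lie head to head, 1308 bases apart on the X chromosome. Col4a5 stood at a median of 895 times the FPKM of Col4a6 over the 21 libraries where the latter was not 0.

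Among the fibrillar pairs, the ratio of Col1a1 to Col1a2 was 1.14 to 1.30 in Control, 0.967 to 1.12 with IS and 0.879 to 1.06 with IS + pNaKtide, so that Control and both IS groups did not overlap. Col5a1 to Col5a2 was 1.25 to 1.39 with oxLDL and 1.67 to 2.46 with oxLDL + pNaKtide, without overlap. In both pairs the partners differ in base composition: 57.8% of the bases of Col1a1 are G or C and 46.8% of Col1a2, and 57.7% of Col5a1 and 46.8% of Col5a2.

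Base composition moved with the changes across all genes. Over the 12567 genes whose log2 CPM averaged 1 or more, the log2 change with oxLDL had a Pearson correlation of -0.70 with GC content, that with IS -0.65, and that of oxLDL + pNaKtide against oxLDL 0.64. Over the 22 chains of that level the same values were 0.08, 0.26 and 0.41. The GC content of the 32 chains ranged from 45.4% to 64.1%, with a median of 56.9% against 49.7% over all genes, and Col8a1, Col3a1, Col5a2, Col1a2, Col11a1, Col12a1, Col28a1 and Col4a3 lay below the latter. When offsets removed the dependence on GC content and length within every library, the correlations over all genes were between -0.01 and 0.01. Over the 22 chains they were 0.49 with oxLDL, 0.45 with IS and -0.08 for oxLDL + pNaKtide against oxLDL. Among the chains, the relation to GC content was thus larger with offsets than without for oxLDL and IS. With oxLDL 6 chains were then called lower and 2 higher, against 19% of all genes, and with IS 10 and 2, against 4.15%. Col1a1, Col4a1, Col4a2 and Col18a1 were then no longer called with oxLDL (log2 -0.36, -0.16, -0.17 and -0.19), while Col6a2 (-0.47), Col6a1 (-0.31), Col15a1 (-0.27) and Col1a2 (-0.72) were, and Col3a1 (-0.38) and Col5a2 (-0.32) were called as well. With IS, Col15a1 was at -0.81. How far base composition accounts for any of these changes was not tested.

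For oxLDL + pNaKtide against oxLDL, the offsets turned Col5a2 from -0.35 to 0.0609 and left 7 chains higher and 6 lower, against 36.2% of all genes. Col1a2 and Col3a1, which like Col5a2 have a GC content near 47%, were then called higher, by 0.73 and 0.34. Col6a2 (0.64), Col6a1 (0.39), Col15a1 (0.38), Col4a5 (-0.86) and Col12a1 (-0.67) stayed past the threshold, and Col4a1 (0.13) and Col5a3 (0.16) did not. Scaled by library size alone, 2 chains were higher and 11 lower, against 51.5% of all genes, with Col6a2 at 0.55 and Col6a1 at 0.40.

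**Figure D5:**
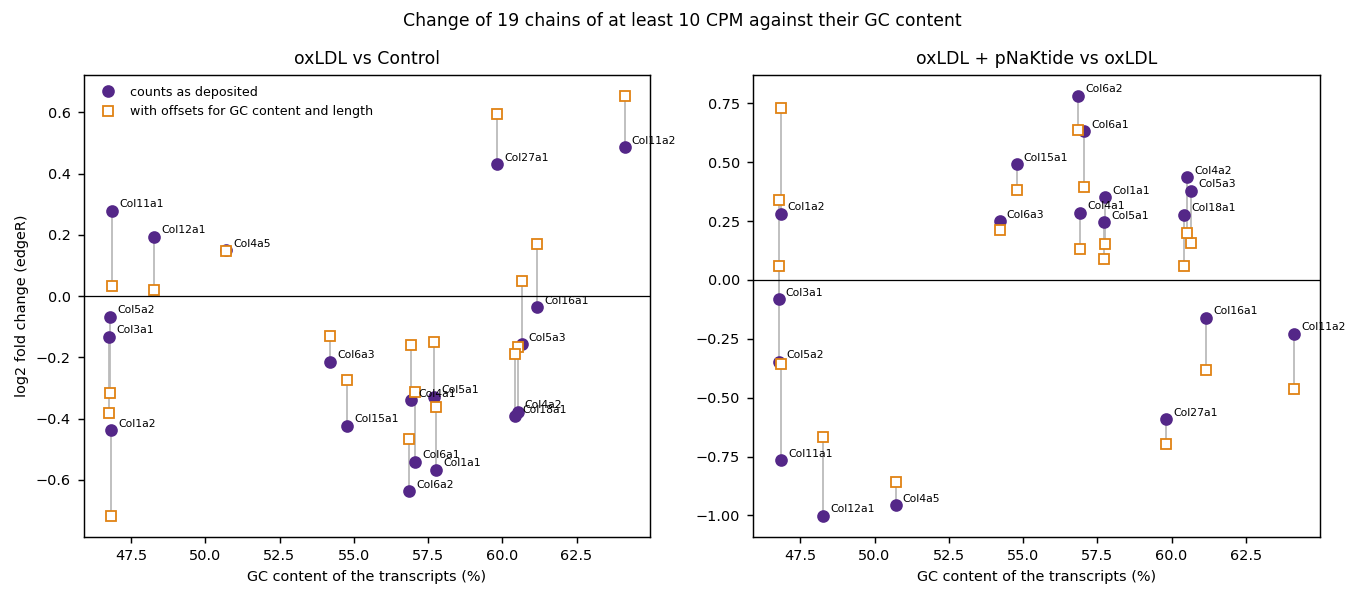
Log2 fold change from edgeR (y axis) of the 19 collagen chains with a mean of at least 10 CPM against the GC content of their transcripts (x axis), for counts as deposited (filled circles) and with offsets for GC content and length (open squares), joined by a line for each chain. With oxLDL + pNaKtide against oxLDL, Col5a2 moves from -0.35 to 0.0609, and Col6a2 stays at 0.64 or above.

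Genes that make, process and break down collagen were a list of 53, of which 48 were tested. With oxLDL 17 of them fell and 9 rose, against 18.0% of all genes lower and 18.1% higher. Among the 19 for hydroxylation of proline and lysine, glycosylation and folding in the endoplasmic reticulum, 12 fell and 4 rose. Plod1 and Plod3, lysyl hydroxylases, fell by 0.59 (SE 0.14) and 0.54 (SE 0.12), each with a BH-adjusted p-value of 0.00783 in edgeR, and Colgalt1, which adds galactose to hydroxylysine, fell by 0.26 (SE 0.06, adjusted p = 0.00836). Of those that rose, Plod2, a lysyl hydroxylase that acts on the telopeptides, rose by 0.50 (SE 0.16, adjusted p = 0.0193, edgeR), Fkbp14, a folding enzyme, by 0.37 (SE 0.11, adjusted p = 0.0150) and Mia2 by 0.49 (SE 0.14, adjusted p = 0.0142). The median of the 48 was -0.20, against 0.04 over all genes.

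With IS 6 of the 48 fell and none rose, against 3.49% of all genes lower and 4.45% higher. All 6 were in the group for hydroxylation and folding, among them Plod3 (-0.48, SE 0.12, BH-adjusted p-value 0.0487, edgeR), Serpinh1, the collagen chaperone Hsp47 (-0.43, SE 0.11, adjusted p = 0.0538), and Plod1 (-0.49, SE 0.14, adjusted p = 0.0645). Serpinh1 was the 1 gene of the list that fell with IS + pNaKtide against Control (-0.46, SE 0.11, adjusted p = 0.0741, edgeR). When pNaKtide was added to oxLDL, 12 rose and 14 fell, which is close to the background of 22.1% higher and 26.1% lower. Plod3 rose by 0.60 (SE 0.12, adjusted p = 0.000212, edgeR), Loxl1, a crosslinking oxidase, by 0.69 (SE 0.15, adjusted p = 0.000571), and Pcolce, which enhances removal of the propeptide, by 0.74 (SE 0.17, adjusted p = 0.000917). Lox, the main crosslinking oxidase, fell by 0.77 (SE 0.11, adjusted p = 1.45e-05, edgeR), Itgb1, the shared subunit of the collagen-binding integrins, by 0.57 (SE 0.10, adjusted p = 6.58e-05), and Plod2 by 0.88 (SE 0.16, adjusted p = 8.53e-05). With both agents against Control, 5 fell and none rose, against 3.16% of all genes lower and 2.04% higher, led by Colgalt1 (-0.31, SE 0.06, adjusted p = 0.00600, edgeR), Ctsk, the collagen-cleaving protease cathepsin K (-0.67, SE 0.14, adjusted p = 0.00952), and Lox (-0.49, SE 0.11, adjusted p = 0.0141). None was called with pNaKtide alone or when pNaKtide was added to IS.

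Markers of cell state were read beside these changes. The summed level of the 9 adipocyte markers was 13094 to 15974 CPM in Control, 11255 to 13420 with IS, 12805 to 16758 with oxLDL and 15158 to 16663 with oxLDL + pNaKtide. With oxLDL, Cebpa and Cidec fell by 0.30 and 0.34 and Cd36 rose by 0.53, and with IS, Adipoq, Cebpa and Cidec fell by 0.43, 0.46 and 0.48 and Cd36 rose by 0.45 (edgeR). The 7 preadipocyte and fibroblast markers summed to 501 to 627 CPM in Control, 443 to 540.1 with oxLDL, 393 to 615 with IS and 466 to 697 with oxLDL + pNaKtide. Of these 7, Dlk1 and S100a4 fell with oxLDL, by 0.69 and 0.23, and Ly6a fell with IS, by 0.44. When pNaKtide was added to oxLDL, Dlk1, Ly6a and S100a4 rose by 1.00, 0.54 and 0.42 and Pdgfra fell by 0.57 (edgeR). The sum of the 3 myofibroblast markers, nearly all of it Postn, was 309 to 488 CPM in Control, 447 to 622 with oxLDL and 287 to 316 with oxLDL + pNaKtide. Postn, which encodes the matrix protein periostin, rose by 0.45 with oxLDL (SE 0.12, adjusted p = 0.00961, edgeR), fell by 0.83 when pNaKtide was added to oxLDL (SE 0.12, adjusted p = 1.03e-05) and fell by 0.38 with both agents against Control (SE 0.12, adjusted p = 0.0675). The adipocyte, preadipocyte and myofibroblast sums with oxLDL each overlapped the Control range. The part of these markers in the collagen changes was not tested. The macrophage and leukocyte markers summed to 4.27 to 8.47 CPM over all libraries, and the endothelial markers to at most 0.613.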

How the data were processed

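RNA-Seq of 30 libraries of 3T3-L1 cells, grouped by their labels into 6 groups of 5, was analysed. The authors trimmed paired reads with Trimmomatic v0.38, aligned them to GRCm38 with HISAT2 v2.1.0 and made the deposited counts per gene, which carry no normalization. The deposited FPKM values are the authors' counts per kilobase, scaled to depth, and were used for levels between chains, ratios and 1 alternative. The authors' normalized counts were not used. Which annotation release the counting used, and whether it read strand, is not stated in what was used here, so reads of overlapping genes on opposite strands cannot be told apart. Exon overlap covered at most 6.07% of the bases of a chain.

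Counts were scaled by TMM and fitted in R 4.3.3 with edgeR 4.0.16 (robust quasi-likelihood model, 6 groups, genes with more than 14 counts in all), two-sided, and adjusted by the BH method over 20139 genes within a comparison, at a threshold of 0.1. The common biological coefficient of variation was 14.0%. CPM values are scaled by TMM, and log2 CPM used a prior count of 2. SE is the log2 fold change divided by the square root of its F. Median depth was 11524210 counts, so that chains below 1 CPM rest on about 10 counts a library or fewer. Chi-square per degree of freedom, about 1 where 2 libraries differ by counting alone, ran from 1.28 to 52.5 over 60 pairs within groups. No pair was an identical copy, but whether some were technical repeats cannot be told. Alternatives were DESeq2 1.42.0, its size factors (RLE), plain library sizes, a floor of at least 1 count in all (29409 genes), a floor of over 14 counts per library (11567 genes), a replicate block, the compared groups alone, offsets for GC content and length (mgcv 1.9.3, GENCODE M21 transcripts), limma 3.58.1 on log2(FPKM + 1) for the 13639 genes whose FPKM averaged 0.5 or more, an adjusted p of 0.05, 2 libraries left out together and each library left out. The steps were tested on simulated data.

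The chains and gene lists were chosen with earlier results of these data known. Chains named by a fixed rule were 13 fixed by name and, per comparison, up to 6 called in each direction by adjusted p, and up to 3 of the synthesis and turnover list. Col5a3 with IS and with IS + pNaKtide, Col27a1 and Col4a3 with oxLDL + pNaKtide, Col12a1 with pNaKtide alone and the least abundant chains were named after their values were seen.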

Additional observations from a re-analysis of the deposited data

Results flagged for a closer look

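Among 120 groups of 5 libraries tested for a library far from the others (gap to the nearest value over the range above 0.71), 6 had one, and chance gives about 1 in 20. Col1a1 had 1365 CPM and Col5a3 62.9 CPM in oxLDL replicate 3, both below the other oxLDL libraries. Col7a1 had 4.22 CPM in pNaKtide replicate 4. Col12a1 had 49.6 CPM in Control replicate 1 and 46.1 CPM in IS replicate 5, each the highest of its group, and Col8a1 had 0.242 CPM in oxLDL replicate 4, the lowest.

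The change with pNaKtide differed between settings in 14 tests by edgeR's interaction term, 9 of 32 chains for oxLDL minus without another agent, against 24.6% of all genes, and 5 of 32 for oxLDL minus IS, against 29.3%. With oxLDL minus without another agent, the log2 difference was 0.76 for Col15a1, 0.51 for Col18a1, 0.76 for Col1a1, 0.56 for Col1a2, 0.44 for Col4a1, 0.51 for Col4a2, -0.52 for Col4a5, 0.77 for Col6a1 and 0.94 for Col6a2. With oxLDL minus with IS, it was -0.70 for Col12a1, 0.47 for Col4a2, -0.87 for Col4a5, 0.60 for Col6a1 and 0.77 for Col6a2. The 2 families share the oxLDL and oxLDL + pNaKtide libraries and are not independent of each other.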

How the results depend on the processing

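Over 56 changes of single chains, 576 values came from alternatives other than leaving out 1 library: 504 stayed past the threshold in the same direction, 71 kept the direction but not the threshold, and 1 reversed, Col5a2 for oxLDL + pNaKtide against oxLDL, at 0.0609 with GC content and length offsets. Of 700 values with 1 library out, 494 stayed past and 206 kept the direction only. The causes were not tested, except that an adjusted p of 0.05 is stricter by construction.

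For oxLDL against Control, 9 chains were called: 4 with library size alone, 14 without both Control replicate 1 and IS replicate 4, and 14 when GC content and length offsets were added to this, an alternative chosen after seeing the data. For IS against Control, 11 were called: 0 in the compared groups alone, 4 at 0.05, and 17 with the offsets and both libraries out. With pNaKtide alone, DESeq2 called 1 in place of 0. For oxLDL + pNaKtide against Control, 1 in place of 4 was called in the compared groups alone.

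For IS + pNaKtide against Control, 4 chains were called: 14 by DESeq2, 2 with library size alone, 9 with more than 14 counts in every library, 12 in the compared groups alone, 13 with offsets, 7 with limma on FPKM, 16 with both libraries out, 18 with offsets and both out, and 0 at 0.05. For the change with pNaKtide with oxLDL minus without, 9 were called: 4 with library size alone, 5 with at least 1 count and 4 at 0.05. For oxLDL minus IS, 5 were called: 3 with at least 1 count, 3 at 0.05, 3 with both libraries out and 2 with the offsets too. The share of all genes called moved as well: with both libraries out it went from 36.0% to 47.6% for oxLDL, from 7.94% to 45.4% for IS and from 0.358% to 32.4% for IS + pNaKtide against Control. Where no share is given, a change in the count of chains between alternatives cannot be told from a change over all genes.

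With 1 library left out, 6 to 13 chains were called for oxLDL, 1 to 17 for IS, 0 for pNaKtide, 11 to 17 for oxLDL + pNaKtide against oxLDL, 0 for IS + pNaKtide against IS, 3 to 4 and 0 to 15 for the combined groups against Control with oxLDL and IS, and 3 to 11 and 2 to 6 for the 2 differences. The share of all genes called moved between these fits too, as given above for oxLDL and IS. The ranges are thus not particular to collagen chains.

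Replicate numbers recur in every group. Deviations from the group means correlated at a median of 0.0996 over 75 pairs with the same number (37 over 0.1) and -0.03 over 300 with other numbers, so the numbers were not taken to pair the libraries. With the replicate block, 12 chains (1 higher, 11 lower) were called for IS + pNaKtide against Control, 10 for oxLDL, 13 for IS, 15 for oxLDL + pNaKtide against oxLDL, and 11 and 5 for the differences. No share of all genes is set beside these counts, so they are not read as a result about collagen.

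Chains below 1 CPM, such as Col4a3, Col4a4 and Col26a1, had too few counts for a change to be detectable at this depth unless it was large.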
